A study of Homo sapiens with 13 samples.

Results

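A549 is an established human lung adenocarcinoma cell line, and a pair of its control cultures from 1 RNA-sequencing study was set side by side here. The first is CRISPRd_Control, the control of cell lines in which the precursors of the microRNAs miR-301a and miR-454 were knocked out with a system the study calls CRISPRd. The second is LV-vector-34, the empty lentiviral vector control of lines that overexpress the same microRNAs from the Lenti-pCDH-CMV system. Both carry the genotype label Control, and both were grown in DMEM/F12 with fetal bovine serum and antibiotics. The labels do not say what the CRISPRd control carries, whether either culture is a clone or a pool, how many passages lie between them, or when each was harvested. The pair makes up 2 of the 13 libraries of the series, 1 library each, and the 7 libraries of its count table also hold LV-miR301a, LV-miR454, LV-3+4 (both microRNAs), CRISPRd_miR301a-#2 and CRISPRd_miR454-#1. Genes entered the comparison with at least 20 reads over both controls and at least 1 CPM in either, CPM being counts scaled to a common library size, which left 14846 of the 39733 genes in the table. With 1 library per culture there is no replicate check and no p-value, so every value below describes these libraries.

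A cancer cell line is a population that keeps evolving: cultures that carry the same name can differ in clonal makeup, chromosome copy number, density and time since feeding. A549 keeps markers of simple epithelium together with an expression programme of liver and gut, run by transcription factors such as HNF4A and FOXA2, and it makes plasma proteins such as fibrinogen that in the body come mainly from hepatocytes. It also has an inactive KEAP1 protein, which leaves the antioxidant regulator NRF2 switched on. A control culture is the point from which knockout or overexpression effects are read, so a gene that differs between controls sets how far a single treated library can be read for that gene.

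The libraries held 19172661 counts for CRISPRd_Control and 18874948 for LV-vector-34, the ends of the range over the 7 libraries, and 3 counts corresponded to 0.152 and 0.157 CPM. Ratios are CRISPRd_Control over LV-vector-34, as log2 of CPM plus 0.5, a scale that understates differences of weakly expressed genes, whereas folds are plain CPM ratios with exact 95% intervals. Such an interval reflects counting alone: without molecular identifiers, reads may be copies of the same molecule. A gene was called when the log2 ratio was at least 1 in size, a 2-fold difference, and the interval excluded equality. In a culture, fewer cells that express a gene and less RNA per cell cannot be told apart.

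The line's markers were present in both cultures. The keratins KRT8, KRT18 and KRT7, filament proteins of simple epithelium, stood at 3744 and 4397 CPM, 3013 and 4169 CPM, and 3536 and 3181 CPM in CRISPRd_Control and LV-vector-34. CDKN2A, a cell cycle inhibitor that A549 has lost by deletion, had 0 counts and 1 count, and its neighbour CDKN2B had 0 counts in both. MTAP, a methionine salvage enzyme next to them, is on the same list of genes in the homozygous deletion at 9p21. It was nonetheless measured at 168 and 137 counts, 8.51 and 7.17 CPM, so that list was not silent throughout. The 30 measured NRF2 targets had summed levels of 45798 CPM in CRISPRd_Control and 50272 in LV-vector-34. None was called lower and 1 (3.33%) was called higher, against 2.62% and 1.72% of all genes. Their median log2 ratio was -0.25, with 24 below 0. Of markers of other cells, 5 of 12 fibroblast genes, 3 of 10 immune genes and 0 of 6 endothelial genes reached the filter. The defining immune gene CD3E was at 0 counts in both cultures, PTPRC at 1 and 3, and the 3 measured ones differed in direction with none called. CD68, a lysosomal protein that many cell types also make, stood at 43.3 and 64.9 CPM, whereas CD14, a co-receptor for bacterial lipopolysaccharide, had 118 and 56 counts (log2 ratio 0.92) and ITGAM, an integrin of myeloid cells, 76 and 38 (0.81). Neither culture is labelled as altering the study's own genes, so their levels check no label here. PRR11, a cell cycle gene, had 132 CPM in CRISPRd_Control and 140 in LV-vector-34, and SKA2, a kinetochore subunit, had 63.3 and 63.1. The MIR301A and MIR454 loci had 0 counts in both cultures, in libraries of polyadenylated RNA that do not measure mature microRNAs.

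Most genes stood close to the diagonal. The median log2 ratio was 0.0076, 84.4% of the 14846 genes lay within 1.5-fold and 93.6% within 2-fold. The rule called 645 genes (4.34%), of which 256 (1.72%) were higher in CRISPRd_Control and 389 (2.62%) were lower, and 110 of the 645 differed at least 4-fold. Calls were concentrated among weakly expressed genes: of the 7787 genes at a mean of 20 CPM or more, 94.6% lay within 1.5-fold and 95 were called. Of 12898 protein-coding genes 4.13% were called, and of 1030 long noncoding RNAs 5.44%.

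**Figure D1:**
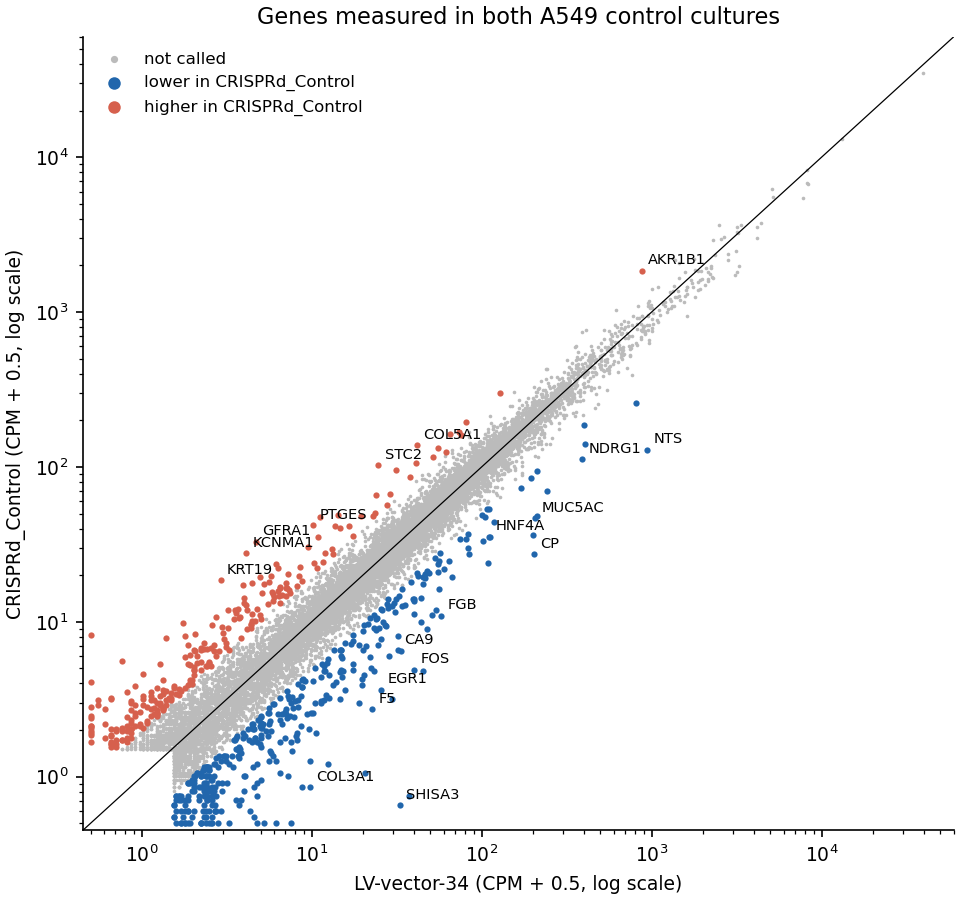
CPM plus 0.5 of each measured gene in LV-vector-34 (x axis, log scale) and CRISPRd_Control (y axis, log scale), 1 point per gene, with the diagonal of equal levels. Grey points are genes that were not called, blue the 389 called lower and red the 256 called higher in CRISPRd_Control; the red and blue points lie mostly in the low range.

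The spread between the cultures was wider than reads alone give at every level of expression. Among the 3636 genes with a mean of 20 to 50 CPM, the robust SD of the log2 ratio was 0.248, against 0.0828 from Poisson counting, 2.99 times as wide. Below 2 CPM the SDs were 0.587 and 0.428, the closest that the spread came to counting. These are unlike measures at low levels: the pseudocount narrows the first, and the second is computed without it. Above 500 CPM counting gave only 0.0159, and the SD between the cultures was 0.299 over 220 genes. The share of called genes was 13.2% below 2 CPM, 0.922% at 100 to 500 CPM and 1.36% above 500 CPM.

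Genes of fibrinogen and coagulation had the largest median difference among the lists of 10 or more measured genes, apart from a brush border list assembled after the values were seen. In CRISPRd_Control 11 of 18 measured members were called lower, against 2.62% of all genes, and 1 higher, against 1.72%. Their median log2 ratio was -1.21. Fibrinogen, the soluble precursor of the clot, is a hexamer of chains encoded by FGA, FGB and FGG, which are neighbours on the long arm of chromosome 4 in the order FGB (chr4:154562956-154571086, plus strand), FGA (chr4:154583126-154590766, minus strand) and FGG (chr4:154604134-154612967, minus strand; GRCh38, GENCODE release 29). Because the 3 chains differed together, their promoters are shown, from 250 bases before to 50 after the start site given by RefSeq (GRCh38.p14). No motif is marked in them.
FGB, plus strand, chr4:154562730-154563029: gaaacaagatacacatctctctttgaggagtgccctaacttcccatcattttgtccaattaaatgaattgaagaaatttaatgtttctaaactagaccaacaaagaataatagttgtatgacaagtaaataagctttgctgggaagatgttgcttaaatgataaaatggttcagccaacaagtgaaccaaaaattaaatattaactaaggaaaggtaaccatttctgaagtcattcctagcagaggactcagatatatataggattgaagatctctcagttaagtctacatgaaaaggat
FGA, minus strand, chr4:154590693-154590992: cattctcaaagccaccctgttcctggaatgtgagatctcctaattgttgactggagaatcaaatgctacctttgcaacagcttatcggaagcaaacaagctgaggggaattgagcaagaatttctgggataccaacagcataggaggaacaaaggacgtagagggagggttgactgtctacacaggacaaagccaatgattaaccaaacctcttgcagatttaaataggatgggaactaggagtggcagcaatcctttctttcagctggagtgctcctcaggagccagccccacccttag
FGG, minus strand, chr4:154612607-154612906: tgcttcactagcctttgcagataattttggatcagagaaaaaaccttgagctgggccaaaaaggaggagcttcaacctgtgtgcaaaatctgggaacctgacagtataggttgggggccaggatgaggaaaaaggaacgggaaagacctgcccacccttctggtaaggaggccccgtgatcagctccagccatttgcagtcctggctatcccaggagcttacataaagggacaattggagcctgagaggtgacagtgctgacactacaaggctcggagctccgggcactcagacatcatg
Shares among called genes are not given for any motif, because RefSeq windows were matched for only 159 of the 256 genes called higher and 268 of the 389 called lower, too few for such a comparison, which is therefore void.

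FGB had 206 counts in CRISPRd_Control and 1093 in LV-vector-34, that is 10.4 and 57.2 CPM, 5.48-fold lower (95% counting interval 4.72 to 6.39). FGG stood at 5.93 and 33.1 CPM, 5.58-fold lower (4.57 to 6.85), and FGA at 15.8 and 55.6 CPM, 3.53-fold lower (3.11 to 4.02). In the other libraries of the table FGB had 66.2 CPM in LV-miR301a, 69.7 in LV-miR454, 63.1 in LV-3+4, 70.5 in CRISPRd_miR454-#1 and 994 in CRISPRd_miR301a-#2. CRISPRd_Control was thus the lowest of the 7 libraries for FGB, as it was for FGA and FGG, while the vector control lay beside 4 of the other 5. The library that stood far above the rest, CRISPRd_miR301a-#2, also had 1219 CPM of FGA and 699 of FGG. F5, coagulation factor V, had 44 and 424 counts, 2.23 and 22.2 CPM, and was 9.95-fold lower (7.28 to 13.9).

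The members called lower included inhibitors of clotting as well as clotting factors. TFPI2, a secreted Kunitz-type protease inhibitor, stood at 140 and 403 CPM (log2 ratio -1.52), TFPI, which blocks the start of coagulation, at 33.5 and 80.3 (-1.25), and PROS1, or protein S, a cofactor in the shutdown of clotting, at 25.4 and 53 (-1.05). The others called lower were F13B (-2.45), SERPINA1 (-1.99), F7 (-1.33) and F2 (-1.16), all under 5 CPM in both cultures. THBD, thrombomodulin, the surface receptor that turns thrombin to an anticoagulant, was the member called higher, with 16.1 and 6.70 CPM. F12 (-0.32) and F3, the tissue factor gene (-0.11), were not called. Of 14 complement genes 3 (21.4%) were called lower, against 2.62% of all genes, and none higher. They included CFI, the protease factor I, at 1.67 and 4.66 CPM, and C4A. C4A had 0 and 44 counts, at least 15.1-fold lower against a floor of 3 counts, but it shares reads with its near-identical copy C4B and its count is uncertain. CP, ceruloplasmin, the copper-carrying plasma protein, named after its value was seen, had 27.0 and 204 CPM, 7.55-fold lower (6.89 to 8.28).

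Transcription factors of the liver and gut programme differed unequally, and their part in the genes above was not tested. HNF4A, a nuclear receptor that defines liver and gut epithelium (chr20:44355700-44434596), had 35.0 CPM in CRISPRd_Control and 111 in LV-vector-34, 3.17-fold lower (2.91 to 3.46). Its levels were 125 in LV-miR301a, 120 in LV-3+4, 69.9 in LV-miR454, 51.8 in CRISPRd_miR301a-#2 and 48.8 in CRISPRd_miR454-#1, so the CRISPRd libraries were the lowest of the 7. FOXA2 was not called at 68.1 and 92.5 CPM (log2 ratio -0.44), whereas FOXA3 was called higher at 2.89 and 1.15 CPM.

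Over the list of liver and gut metabolism 7 of 29 measured genes (24.1%) were called lower, against 2.62% of all genes. FOXA3 was called higher (3.45%, against 1.72%), and the median was -0.30. The 7 included CYP4F11, a fatty acid hydroxylase (27.0 and 83.5 CPM), PCK1, the rate-limiting enzyme of gluconeogenesis (0.304 and 1.94 CPM), and APOE, a lipid carrier (4.31 and 11.4 CPM). ALDH1A1, an aldehyde dehydrogenase, at 6707 and 8333 CPM, was not called (-0.31). The spread within the list was wide, from -1.97 to 1.04.

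A set of microvillus genes was grouped after the values were seen, so its counts are a description. Of 13 measured genes of the absorptive brush border 7 were called lower and none higher, against 2.62% and 1.72% of all genes. The log2 ratios ranged from -2.22 to 0.29. Their median of -1.32 was -0.66 with a pseudocount of 2 CPM and -0.68 without the filter on low counts. VIL1, the actin bundler villin, had 1.27 CPM in CRISPRd_Control, 6.44 in LV-vector-34 and 5.84 to 13.1 in the other 5 libraries, whose range did not include the CRISPRd_Control value. USH1C, the harmonin scaffold at microvillus tips, had 10.5 and 50.9 CPM, 4.85-fold lower (4.17 to 5.66), and 51.1 to 187 in the other 5. EZR, ezrin, which ties microvilli to the cell membrane and is made by most epithelia, was not called at 342 and 281 CPM (0.29). Of 4 measured uroplakins, plaque proteins of bladder epithelium, also grouped after their values were seen, 3 were called lower. Their median log2 ratio was -1.30, but -0.79 with a pseudocount of 2 CPM and -0.69 with a minimum of 5 CPM. UPK1B, the most strongly different of them, had 23.4 and 109 CPM. It had 110 CPM in LV-miR301a, 106 in LV-3+4, 40.6 in LV-miR454, 170 in CRISPRd_miR301a-#2 and 9.93 in CRISPRd_miR454-#1, so CRISPRd_Control lay inside the range of the other libraries.

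Secreted mucins split. MUC5AC, a gel-forming airway and stomach mucin, had 46.5 CPM in CRISPRd_Control and 205 in LV-vector-34, 4.42-fold lower (4.11 to 4.76), although the table lists numbered copies of it that were summed. MUC16, a membrane mucin, had 4 and 40 counts. MUC5B, the other large airway mucin, was not called at 107 and 60.5 CPM (0.82), and the other measured mucin and trefoil genes lay between -0.61 (MUC20) and 0.66 (TFF1). Of 20 measured neuronal genes 4 were called lower and none higher. NTS, the neuropeptide neurotensin that gut endocrine cells and some lung cancers make, had 129 CPM in CRISPRd_Control, 944 in LV-vector-34, 941 in LV-miR301a, 861 in LV-3+4, 333 in LV-miR454, 722 in CRISPRd_miR454-#1 and 2964 in CRISPRd_miR301a-#2. The vector control lay beside both lentiviral libraries that carry miR-301a, and CRISPRd_Control was the lowest of the 7. NEFL, a neurofilament chain, was lower as well, with 9.53 and 43.7 CPM against 35.7 to 51.4 in the other 5.

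**Figure D2:**
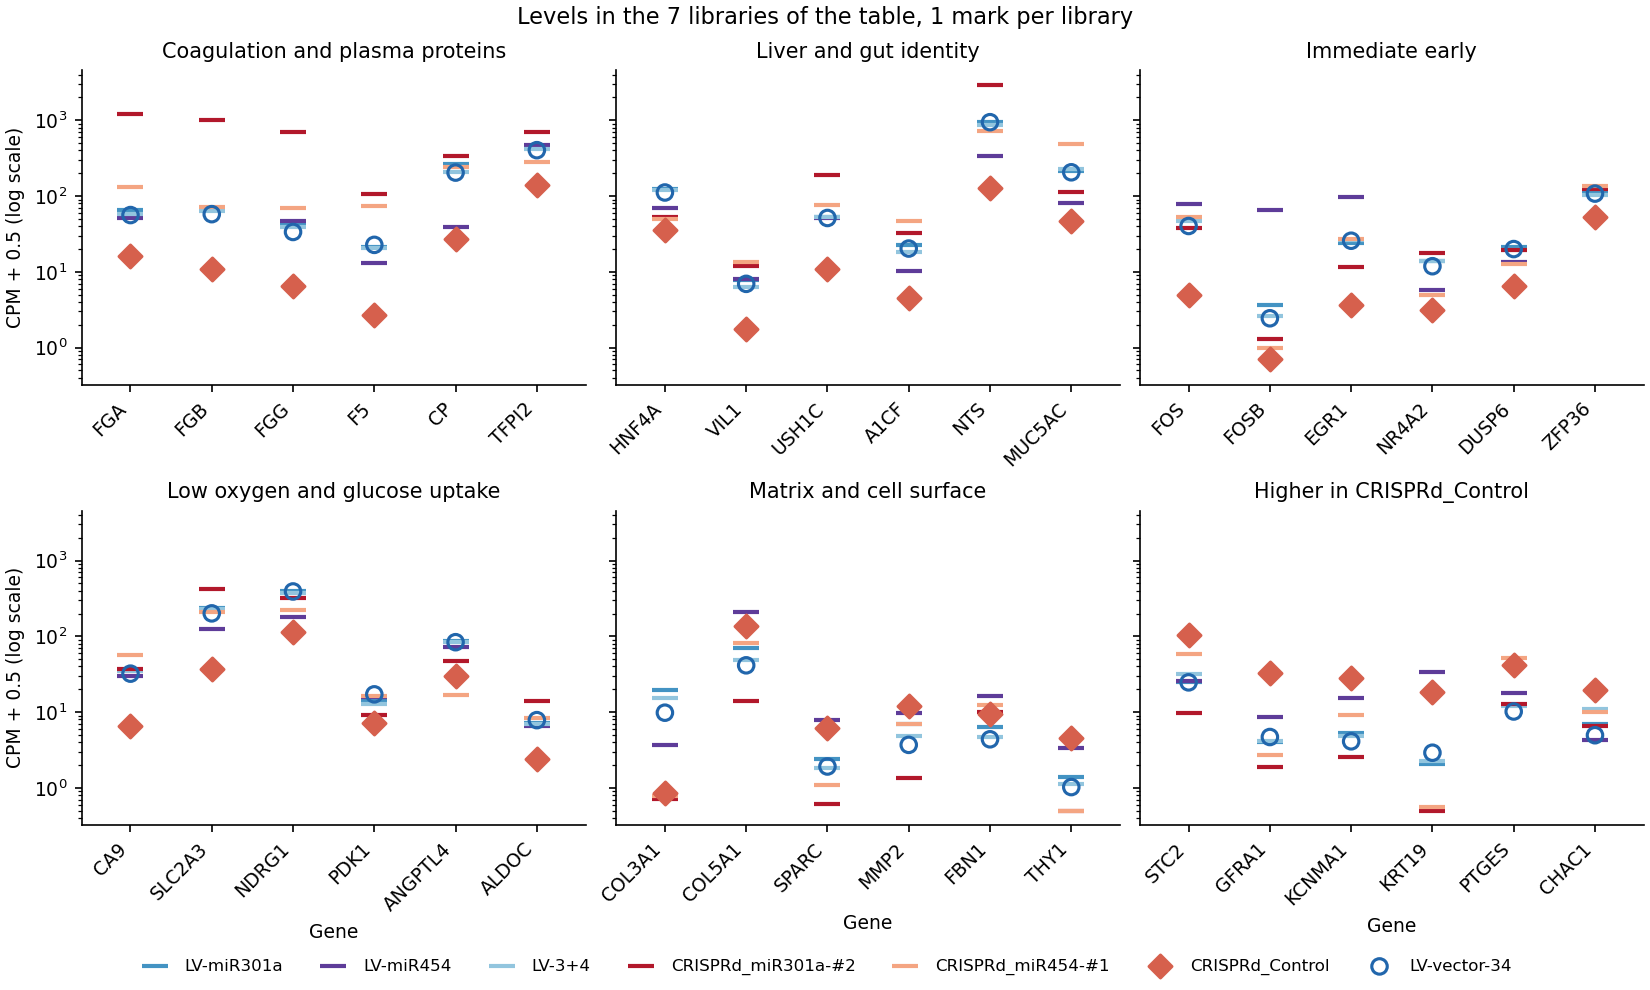
CPM plus 0.5 (y axis, log scale) of 36 genes in the 7 libraries of the table, in 6 panels by gene group, 1 mark per library. Red diamonds are CRISPRd_Control, open blue circles LV-vector-34 and short bars the other 5 libraries. In the first 4 panels the diamonds lie below the circles for every gene shown, and in the last they lie above. The genes of each panel were picked with their values known, so these directions follow from the choice. FOSL1, FOXA3 and THBD, which are not shown, were called higher.

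Immediate early genes, the first to be transcribed after a growth or stress signal and among the shortest-lived messages of the cell, were called in part. Of 34 measured members 7 (20.6%) were called lower and 1 (2.94%) higher, against 2.62% and 1.72% of all genes. The median log2 ratio was -0.12. FOS (chr14:75278774-75282230), which encodes a subunit of the factor AP-1, had 87 counts in CRISPRd_Control and 760 in LV-vector-34, 4.41 and 39.8 CPM, 9.02-fold lower (7.22 to 11.4). The other 5 libraries had 37.4 to 78.2 CPM. CRISPRd_Control was therefore the library apart, and LV-vector-34 lay inside the range of the rest.

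EGR1, a zinc finger factor induced by serum, had 3.14 and 25.2 CPM, 8.03-fold lower (6.15 to 10.6), and 11.2 to 95.9 in the other 5 libraries. Its promoter is shown because serum acts on it through CArG boxes, binding sites of serum response factor, which the capitals mark. It is the RefSeq window (GRCh38.p14).
EGR1, plus strand, chr5:138465229-138465528: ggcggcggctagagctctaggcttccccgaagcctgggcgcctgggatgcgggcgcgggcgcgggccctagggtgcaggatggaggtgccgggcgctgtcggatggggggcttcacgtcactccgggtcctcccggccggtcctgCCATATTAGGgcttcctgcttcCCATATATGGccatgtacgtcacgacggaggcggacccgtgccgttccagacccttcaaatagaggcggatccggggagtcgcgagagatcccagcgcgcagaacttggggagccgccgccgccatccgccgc
The matches start at positions -105 and -83, and a CArG box on either strand occurs in 1.29% of 27305 promoters of the same length. NR4A2 and NR4A3, orphan nuclear receptors, had 2.64 and 11.4 CPM, and 1.32 and 5.02 CPM. DUSP6, a phosphatase that restrains ERK and is read as an output of that kinase, had 6.03 and 19.5 CPM. ZFP36, which marks unstable messages for decay, had 52.8 and 107. FOSL1, another AP-1 subunit, was higher in CRISPRd_Control, at 105 CPM against 40.4, and was there the highest of the 7 libraries. JUN (61.7 and 48.1 CPM), MYC (184 and 180) and DUSP1 (214 and 197) were not called.

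Genes that low oxygen induces through HIF1 and genes of sugar breakdown were lower at a few members. Of 29 measured genes 6 (20.7%) were called lower, against 2.62% of all genes, and none higher, with a median of -0.29. CA9, carbonic anhydrase 9, a surface enzyme used as a marker of hypoxia, had 6.08 CPM in CRISPRd_Control, 31.7 in LV-vector-34 and 29.2 to 55.9 in the other 5 libraries, 5.21-fold lower than in the vector control (4.27 to 6.39). Its RefSeq promoter is shown (GRCh38.p14), with capitals on the letters CACGT, which read ACGTG on the other strand, the core of hypoxia response elements.
CA9, plus strand, chr9:35673678-35673977: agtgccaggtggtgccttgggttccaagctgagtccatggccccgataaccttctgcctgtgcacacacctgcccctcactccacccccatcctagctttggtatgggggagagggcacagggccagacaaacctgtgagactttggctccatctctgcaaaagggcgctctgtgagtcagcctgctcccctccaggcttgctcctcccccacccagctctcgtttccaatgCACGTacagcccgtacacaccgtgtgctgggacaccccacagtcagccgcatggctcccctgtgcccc
The match starts at position -18, and the core occurs in 21.6% of the 27305 promoters on either strand. SLC2A3, the high-affinity glucose transporter GLUT3, had 36 and 200.4 CPM, 5.57-fold lower (5.14 to 6.04), and 124 to 416 in the other 5. NDRG1, a differentiation and stress gene, had 112 and 390 CPM, and PDK1, the kinase that keeps pyruvate out of mitochondria, 6.74 and 16.6. ANGPTL4, a secreted lipase inhibitor, had 29.2 and 83.1 CPM, but CRISPRd_miR454-#1 was lower still at 16.5. The glycolytic enzymes themselves were not called: GAPDH had 5475 and 7819 CPM (-0.51), LDHA 1670 and 2287 (-0.45), and VEGFA, another HIF1 target, 59.4 and 53.8 (0.14). The control libraries of the other 2 tables, scaled separately, had CA9 at 12.5 CPM in CRISPRi_Mock sgRNA and 7.64 in LV-vector-PS.

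Genes of the extracellular matrix, the protein scaffold around cells, differed in either direction. Of 35 measured matrix and integrin genes 5 were called higher in CRISPRd_Control and 3 lower, with a median of 0.20, and of 21 mesenchymal genes 4 were higher and 2 lower, with a median of 0.33. COL5A1, a fibrillar collagen chain, had 138 and 40.9 CPM, 3.38-fold higher (3.12 to 3.66), within the 13.6 to 212 of the other 5 libraries. SPARC, a matrix-binding glycoprotein, had 5.63 and 1.41 CPM and was highest of the 7 libraries in LV-miR454 at 7.29. MMP2, a gelatinase, had 11.6 and 3.19 CPM and was highest in CRISPRd_Control. COL3A1, a fibrillar collagen of soft tissue, went the other way, with 7 and 178 counts, 26.3-fold lower (12.5 to 66.2), and 0.216 to 19.3 CPM in the other 5.

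Markers of fibroblasts share members with these lists. Of the 12 fibroblast markers 5 were measured, 3 of them called higher (THY1, COL5A1 and FBN1) and 1 lower (COL3A1). Over all genes 1.72% were called higher and 2.62% lower. The summed level of all 12 was 167 CPM in CRISPRd_Control and 81.6 in LV-vector-34, of which COL5A1 alone made up 138 and 40.9. The median log2 ratio of the measured markers was 1.12, but 0.17 with a minimum of 5 CPM and -0.32 without the filter on low counts. FAP was at 0 counts in both cultures, COL1A2 at 0 and 1, DCN at 0 and 4, and PDGFRB at 3 and 6. VIM, the intermediate filament of mesenchymal cells that A549 also makes, was not called at 1215 and 1277 CPM. Their part in the matrix result was not tested.

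Chains of collagen IV, the sheet-forming collagen of basement membranes, were grouped after their values were seen, since their genes lie in head-to-head pairs. COL4A3 (chr2:227164565-227314792, plus strand) and COL4A4 (chr2:227002711-227164453, minus strand) start beside each other, and their RefSeq promoter windows overlap by 82 bases. COL4A5 (chrX:108439844-108697545, plus strand) and COL4A6 (chrX:108155607-108439497, minus strand) do so by 121 bases. The stretches that each pair shares are shown on the plus strand because the pairs differ in behaviour, and no motif is marked in them.
COL4A3 and COL4A4, chr2:227164374-227164455: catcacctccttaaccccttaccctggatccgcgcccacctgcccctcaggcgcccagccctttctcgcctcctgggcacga
COL4A5 and COL4A6, chrX:108439588-108439708: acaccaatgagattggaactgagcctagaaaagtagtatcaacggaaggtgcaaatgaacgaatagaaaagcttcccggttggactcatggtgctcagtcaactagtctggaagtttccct
COL4A3 had 4.31 CPM in CRISPRd_Control and 11.5 in LV-vector-34, and COL4A4 had 11.8 and 27.7, log2 ratios of -1.31 and -1.20, with CRISPRd_Control the lowest of the 7 libraries for both. COL4A6 had 39.7 and 14.1 CPM (1.46), whereas its neighbour COL4A5 was not called at 41.1 and 35.7 (0.20). COL4A6 also ranged most across the table, from 0.0539 CPM in CRISPRd_miR301a-#2 to 92.3 in CRISPRd_miR454-#1. COL4A1 (0.47) and COL4A2 (0.50), the chains of most basement membranes, were not called.

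The genes highest in CRISPRd_Control relative to the vector control came from several classes. By the rule of the counting bound farthest from equality, the strongest without an uncertain count were LHFPL6, GFRA1, KCNMA1 and KRT19. GFRA1, the receptor for the growth factor GDNF, had 32.5 and 4.19 CPM, 7.76-fold higher (6.14 to 9.92), and 1.40 to 8.08 in the other 5 libraries. KCNMA1, a calcium-activated potassium channel, had 27.3 and 3.61 CPM, 7.57-fold higher (5.88 to 9.87), and 2.05 to 14.8 in the other 5. For both genes CRISPRd_Control was the highest of the 7. The control libraries of the other tables had 22.1 and 27.0 CPM of GFRA1, and 10.3 and 14.9 of KCNMA1, in CRISPRi_Mock sgRNA and LV-vector-PS.

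KRT19, the smallest keratin and a marker of simple epithelium, had 355 counts in CRISPRd_Control and 46 in LV-vector-34, 18 and 2.41 CPM, 7.47-fold higher (5.49 to 10.4). It had 33.5 CPM in LV-miR454, 1.54 in LV-miR301a, 1.77 in LV-3+4, 0 in CRISPRd_miR301a-#2 and 0.0549 in CRISPRd_miR454-#1. Its level thus divided the 7 libraries into a high pair, CRISPRd_Control and LV-miR454, and 5 low ones that come from both the knockout and the lentiviral set. CRISPRi_Mock sgRNA had 20.3 CPM and LV-vector-PS 15.1. EPCAM, an epithelial adhesion molecule, went the other way with 3.29 and 8.27 CPM, and CDH1, E-cadherin, at 60.4 and 102 CPM was not called (-0.76).

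Among stress programmes, the ATF4 response to amino acid shortage had 2 of 24 measured genes (8.33%) called higher, against 1.72% of all genes. None was called lower, and the median was 0.23. STC2, the secreted glycoprotein stanniocalcin 2, had 102 and 24.2 CPM, 4.23-fold higher (3.82 to 4.69), and 9.27 to 57.6 in the other 5 libraries. CHAC1, which degrades glutathione, had 19.1 and 4.45 CPM, 4.28-fold higher (3.38 to 5.49), and 3.80 to 10.6 in the other 5. CRISPRd_Control was the highest of the 7 for both. ATF4 itself (0.23), ASNS, asparagine synthetase (0.36), and TRIB3, a pseudokinase of the same response (0.46), were not called. Targets of NF-kB, the factor of inflammatory signalling, had 1 of 25 (4.00%) called higher, against 1.72% of all genes, and none lower. The gene called was CXCL1, a neutrophil chemokine, at 50.1 and 23.1 CPM. Yet 20 of the 25 lay above 0 and the median was 0.59. TNFAIP3, an NF-kB inhibitor and target, was just under the threshold at 31.3 and 15.6 CPM (0.98). PTGES, which makes prostaglandin E, was among the genes named for size, with 41.7 and 9.68 CPM. AKR1B1, aldose reductase, an NRF2 target, had 1853 and 878 CPM, 2.11-fold higher (2.07 to 2.15), and LV-vector-34 was the lowest of the 7 libraries.

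Some groups shifted by a small amount in nearly every member with no gene called. Of 45 cytosolic ribosomal proteins 44 lay below 0, with a median of -0.29 and a range of -0.50 to 0.03. RPS2 had 3531 and 4168 CPM and RPL4 2483 and 3145. Of 31 nuclear genes of oxidative phosphorylation, the mitochondrial respiratory machinery, 29 lay below 0, with a median of -0.24. ATP5F1B, a subunit of ATP synthase, had 731 and 916 CPM. Of 40 genes of the G1/S transition and DNA replication 39 lay above 0, with a median of 0.22. MCM7, a subunit of the replicative helicase, had 408 and 307 CPM. The 40 genes of G2 and mitosis had a median of 0.05, with 26 above 0, and TOP2A, the mitotic topoisomerase, had 596 and 535 CPM. Over all 14846 genes 7598 lay above 0. The 27 reference genes used to normalise other assays had a median of -0.02 and no call.

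Components of the PI3K-AKT pathway, the growth signal that the study set out to follow, had few calls, as all genes did. Of 32 core genes 1 (3.12%) was called lower and none higher, against 2.62% and 1.72% of all genes, with log2 ratios from -1.02 to 0.73. Of 20 brakes on the pathway none was called, with log2 ratios from -0.90 to 0.98. AKT1 had 190 and 172 CPM and MTOR, the kinase at the core of growth control, 73.6 and 64.2. The gene called was SGK1, a kinase related to AKT that serum and steroids induce, with 20.02 and 41 CPM (-1.02), against 23.3 to 49.9 in the other 5 libraries. It lay just inside the threshold, and its log2 ratio was -0.99 with total counts, -0.96 with a pseudocount of 2 CPM and -0.97 with GC-centred ratios, none of which is called. Targets of the FOXO factors, which AKT holds back, had 3 of 21 (14.3%) called lower and none higher, 18 below 0, and a median of -0.50. They were ERBB3, a receptor of the EGFR family, at 11 and 30.5 CPM, SESN3, a stress-induced inhibitor of mTOR, at 2.08 and 5.08, and CCNG2, an unconventional cyclin, at 4.51 and 9.89. CCNG2 too lost its call with a pseudocount of 2 CPM (-0.87) and with GC-centred ratios (-0.999), and SESN3 with a pseudocount of 2 CPM (-0.80). Among 35 ligands and receptors 2 (5.71%) were called in each direction. IGF2, a growth factor, had 1.17 and 7.01 CPM and ERBB3 was the other lower gene, while the EGFR ligand TGFA, at 16 and 5.96, and PDGFC, at 3.09 and 0.889, were higher. PDGFC lost its call with a pseudocount of 2 CPM (0.82).

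Reported targets of the microRNA family of miR-301a and miR-454 were centred near 0, with a median of -0.01 over 28 measured genes. INHBA, the activin A subunit, had 11 and 115 counts, 10.8-fold lower (5.81 to 22.2). PPARGC1A, a coactivator of mitochondrial genes, had 2.03 and 6.23 CPM, TP63, a p53 relative, 1.17 and 3.92, and ABCA1, a cholesterol exporter, was higher at 16.4 and 5.96. The 22 measured neighbours of the unit on chromosome band 17q22 had no call and a median of -0.04.

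The remaining strongest differences on the lower side were of single genes. SHISA3, an inhibitor of receptor maturation (chr4:42397839-42402487), had 3 counts in CRISPRd_Control and 621 in LV-vector-34, 214-fold lower with a counting interval of 72.8 to 1039. It had 32.1 CPM in LV-miR301a and 33.4 in LV-3+4, beside 32.5 in LV-vector-34, but 1.27 in LV-miR454, 1.08 in CRISPRd_miR301a-#2 and 0.0549 in CRISPRd_miR454-#1. Its level in the controls of the other tables was 0.292 CPM in CRISPRi_Mock sgRNA and 0.902 in LV-vector-PS, so it was high only in LV-vector-34, LV-miR301a and LV-3+4 among those 9 libraries. TACR1, the receptor of substance P, followed the same division, with 8.32, 7.75 and 10.2 CPM in those 3 libraries and 0.355 in CRISPRd_Control, 1.64 in LV-miR454 and 0.0539 and 0.0549 in the knockouts. SEC16B, a factor of export from the endoplasmic reticulum, had 0 and 108 counts, at least 37.2-fold lower against a floor of 3 counts, and 3.75 to 9.05 CPM in the other 5 libraries. DOCK8, an activator of the GTPase CDC42, had 0.709 and 12 CPM, and NEB, the giant filament protein nebulin, 4.31 and 44.5.

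Some strong differences rest on counts that cannot be assigned to 1 locus with certainty. Of the 645 called genes 74 (11.5%) had numbered copies, were pseudogenes or were readthrough transcripts, against 10.0% of all measured genes. SERF1A, which has a near-identical copy, had 153 and 0 counts, at least 49.4-fold higher against a floor of 3 counts, and the pseudogene GTF2IP1 had 5 and 701, with 0 in LV-miR454 and LV-3+4. RN7SL1 and RN7SL2, near-identical RNAs of the signal recognition particle, which are not polyadenylated messages, had 2.48 and 18.5 CPM, and 0.557 and 20.04 CPM. The other 5 libraries had 1.03 to 5.07 CPM of RN7SL1 and 0.417 to 0.924 of RN7SL2, so LV-vector-34 was the library apart.

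How far the cultures differed can be set beside the other libraries. Among the 21 pairs that the 7 libraries of the table form, which share libraries with each other, the control pair was number 4 when ordered from the fewest calls. LV-miR301a and LV-3+4 differed at 82 genes, LV-vector-34 and LV-3+4 at 94, and LV-vector-34 and LV-miR301a at 107. Every pair other than those 3 and the controls had more, from 647 for CRISPRd_Control and LV-3+4 to 1885 for LV-miR454 and CRISPRd_miR301a-#2. The knockouts differed from each other at 960 genes, and from CRISPRd_Control, their own control, at 1638 and 1456.

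The difference between the controls was next compared with the difference between the sets they belong to, in the 5 libraries that did not enter it. Of the 256 genes higher in CRISPRd_Control, 53 (20.7%) had both knockouts above all 3 lentiviral microRNA libraries, against 20% of all measured genes, and 50 (19.5%) had both below them. Of the 389 lower genes, 77 (19.8%) had both knockouts below all 3, against 22.4% of all genes. With LV-miR454 included these shares were close to those of all genes. They moved when LV-miR454 was left out, which loosens the criterion for every gene. Both knockouts then lay above LV-miR301a and LV-3+4 for 35.9% of the higher genes, against 28.4% of all, and below for 20.7%, against 32.7%. For the lower genes they lay below in 38.3%, against 32.7% of all, and above in 21.6%, against 28.4%.

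Within the table CRISPRd_Control was more often the single highest or lowest library than LV-vector-34. The controls are not on equal terms here. LV-vector-34 had close neighbours in LV-3+4 and LV-miR301a, at 94 and 107 genes, which share its extremes, whereas CRISPRd_Control differed from every library at 645 or more. Over all genes LV-miR454 was the highest in 21.5% and the lowest in 21.5%. CRISPRd_Control was the lowest of the 7 libraries in 249 of the 389 genes called lower (64.0%), against 14.6% of all measured genes. It was the highest in 122 of the 256 called higher (47.7%), against 16.8%. LV-vector-34 was the lowest in 77 of the 256 (30.1%), against 7.13%, and the highest in 73 of the 389 (18.8%), against 8.26%. A call requires the controls to differ, which by itself moves these shares above those of all genes. Among the genes called lower, the level in LV-miR301a was nearer to LV-vector-34 than to CRISPRd_Control for 91.8%, and in LV-3+4 for 90.0%, against 71.0% and 71.4% of all genes. The same shares were 51.4% for LV-miR454, 67.4% for CRISPRd_miR301a-#2 and 53.7% for CRISPRd_miR454-#1, against 47.4%, 57.8% and 53.9% of all genes.

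The control libraries of the other 2 tables, which were scaled separately and list other gene sets, gave no single order. Of the 321 lower genes that all 3 tables list, both CRISPRi_Mock sgRNA and LV-vector-PS were nearer to LV-vector-34 for 119 (37.1%) and nearer to CRISPRd_Control for 89 (27.7%), against 31.8% and 30.8% of 12715 genes. Of the 201 higher genes both were nearer to LV-vector-34 for 42 (20.9%) and to CRISPRd_Control for 74 (36.8%).

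Position in the genome and base composition moved with the ratio by small amounts. Genes at 5 CPM or more, of which 97.4% could be matched, were divided into 5 groups of like size by the GC content of their longest transcript. The median log2 ratio went from -0.09 in the group with the lowest GC content to 0.11 in the group with the highest. The share called higher went from 0.0878% to 1.98% between those groups, and the share called lower from 1.71% to 1.41%. With the log2 ratios of the 13759 genes that have a GC value centred on it, 568 were called, 212 higher and 356 lower. By chromosome the medians lay between -0.11 on chromosome 8 and 0.12 on chromosome 19. After the same correction chromosome 12 had -0.12, chromosome 8 had -0.10 and chromosome 19 had 0.03. Of 420 windows of 50 neighbouring genes 14 had a median beyond 0.2 in size, 10 of them upward. The highest was 0.31, between POP4 and NFKBID on chromosome 19, and the lowest -0.25, between PDE7A and FAM92A on chromosome 8. The part of copy number or GC in the called genes was not tested.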

How the data were processed

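Polyadenylated RNA of A549 cultures was sequenced, 1 library per group. The authors deposited expected counts, gene totals estimated as fractions where reads fit several genes, made with RSEM 1.3.3, Bowtie2 2.3.5.1 and GRCh38.p13 per the submitters' processing notes. Neither annotation release nor strandedness is given in the sources used here; overlapping and antisense genes may share reads. Symbols with numbered copies (4842 copies, 2.02% of counts) were summed and counts were rounded, 27 date-like names were turned back to symbols where only 1 gene fits, and libraries were scaled over the 7 of the table by TMM (a trimmed mean of log ratios, edgeR 4.0.16, R 4.3.3). A pseudocount of 0.5 CPM was used, genes with 0 counts took a floor of 3 counts, and no p-value was computed. The calling rule was tested on simulated data. Some genes are not reported here.

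The gene members and lists were chosen with earlier results of these data known. The text names the study's unit, up to 4 called members per list, or 2 of the highest for a list without calls, and the 12 higher and 12 lower genes at 5 CPM or more whose counting bound lies farthest from equality. Other genes named beside them, 5 of the 56 lists, the motifs marked in promoters and the comparison with controls of other tables were chosen after values were seen. Alternatives were DESeq2 1.42.0 size factors, total counts, TMM over the pair, other filters, pseudocounts, folds and handling of copies. Positions are from GENCODE release 29 and sequences from RefSeq (GRCh38.p14). Tables were handled in Python 3.11.15 (pandas 2.3.3, numpy 2.4.6) and intervals computed with scipy 1.17.1.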

Additional observations from a re-analysis of the deposited data

How the results depend on the processing

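The 645 calls were 643 with DESeq2 size factors, 654 with total counts, 616 without symbols that have copies, 571 without uncertain genes and 875 with copies apart. A pseudocount of 2 CPM left 108 higher and 193 lower, 2.03% of the genes measured. A minimum of 5 CPM left 328 (2.81%), 1.5-fold gave 1820 (12.3%) and 4-fold 110 (0.741%), settings that by construction admit fewer or more genes. Spread over counting, 2.99, was 2.86 with a pseudocount of 2 and 2.79 with GC-centred ratios. The 64.0% of lower genes at which CRISPRd_Control was lowest became 55.8% with copies apart and 55.1% at 1.5-fold. The 20.7% of higher genes with both knockouts above the lentiviral libraries became 13.8% at 4-fold and 35.9% without LV-miR454, and the 19.8% of lower genes 38.3% without it; the cause was not tested. Of 1418 values of 121 named genes under 12 alternatives, 1347 kept the call or its absence. Another 68 lost the call (44 at 4-fold and 21 with a pseudocount of 2) and 3 gained it. None of the 82 called genes reversed direction, and the direction of the genes not called was not checked. Genes that a setting left out gave no value under it, so 105 of the 121 had one with a minimum of 5 CPM. GC-centred ratios, leaving out uncertain genes and leaving out LV-miR454 were chosen after seeing the data. With GC-centred ratios several medians moved by over 1.5 times. They included the ATF4 response (0.14), immediate early genes (-0.22), matrix genes (0.12) and G2 and mitosis (0.08). Others were the PI3K, AKT and mTOR core (0.077 to 0.014), TGF-beta targets (-0.03 to -0.12), S100 genes (-0.04 to -0.17) and keratins (0.16 to 0.09). Medians near 0 changed in size or sign, that of reference genes to 0.0046 with total counts and -0.07 without symbols that have copies. No paired analysis was possible because each group has 1 library. No replicate could be left out for the same reason, so culture, treatment and library cannot be told apart. Counting error was largest for genes under 2 CPM, with an SD of 0.428, below the 0.587 between the cultures.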
